A study of Homo sapiens with 8 samples.

Results

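Genes of the synaptic vesicle and SNARE release machinery were chosen by symbol, 41 of the 47591 genes in the table, in 6 steps: the SNARE core with its disassembly factors, calcium sensors and complexins, docking and priming, vesicle coat, active zone, and recycling. All 41 were in the table and 39 averaged 10 or more normalized counts across the 8 libraries, the level needed to enter the test. AMPH, which encodes the endocytic adaptor amphiphysin, and CADPS2, a priming factor of dense-core granules, fell below it. AMPH was listed at 5.65, 13.1 and 0 in the 3 G2 libraries and at 0 in all controls, and CADPS2 was listed at 0 in 6 libraries, at 12.9 in G2 replicate 3 and at 7.45 in WT replicate 1.

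Chemical synapses release transmitter when a vesicle fuses with the plasma membrane. Fusion is driven by a bundle of SNARE proteins, in which VAMP on the vesicle pairs with syntaxin and SNAP25 on the plasma membrane, while synaptotagmins sense calcium and complexins hold the bundle until calcium arrives. Vesicles are first clustered by synapsins, tethered by RAB3 and its effectors, and primed by UNC13 and CADPS proteins at the active zone, a scaffold of RIM, Bassoon, Piccolo and ELKS proteins, and after fusion their membrane is taken back by dynamin, synaptojanin and amphiphysin. SH-SY5Y neuroblastoma cells are of sympathetic lineage and carry this apparatus for both small vesicles and dense-core granules.

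Polyadenylated RNA was sequenced from 3 lines of SH-SY5Y, a human neuroblastoma line, with no differentiating treatment given for these cultures. G2 (3 libraries) carries a CRISPR/Cas9 edit made with a guide against PRPF40B, a splicing factor, and was raised from single colonies after puromycin selection. SCR (3 libraries) received the same machinery with a scrambled guide, and WT (2 libraries) was not modified. G2 is a single edited line, so the edit and what else sets that line apart cannot be told apart, and WT further differs by the lack of guide and selection. The labels call the libraries biological replicates without naming separate cultures, so p-values measure the spread between these samples, which may be technical.

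PRPF40B (chr12:49623561-49644666, hg38), the targeted gene, had 840, 841 and 918 normalized counts in G2, 1686, 1672 and 1669 in SCR and 1972 and 1668 in WT. The 3 G2 libraries lay below the 5 controls, with a log2 fold change of -0.95 (SE 0.08, adjusted p = 7.4e-07) against SCR and -1.07 (SE 0.09, adjusted p = 7.9e-07) against WT. Recovered totals ran from 59804395 to 81080747 counts per library, or 19934798 to 27026916 fragments at about 3 counts per fragment. Over the genes tested, Pearson's r of log2 values was 0.981 to 0.988 between libraries of a line, 0.968 to 0.973 between SCR and WT, and 0.930 to 0.945 between G2 and the controls. All of the 12 markers listed for adrenergic neuroblastoma passed the minimum level.

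**Figure D1:**
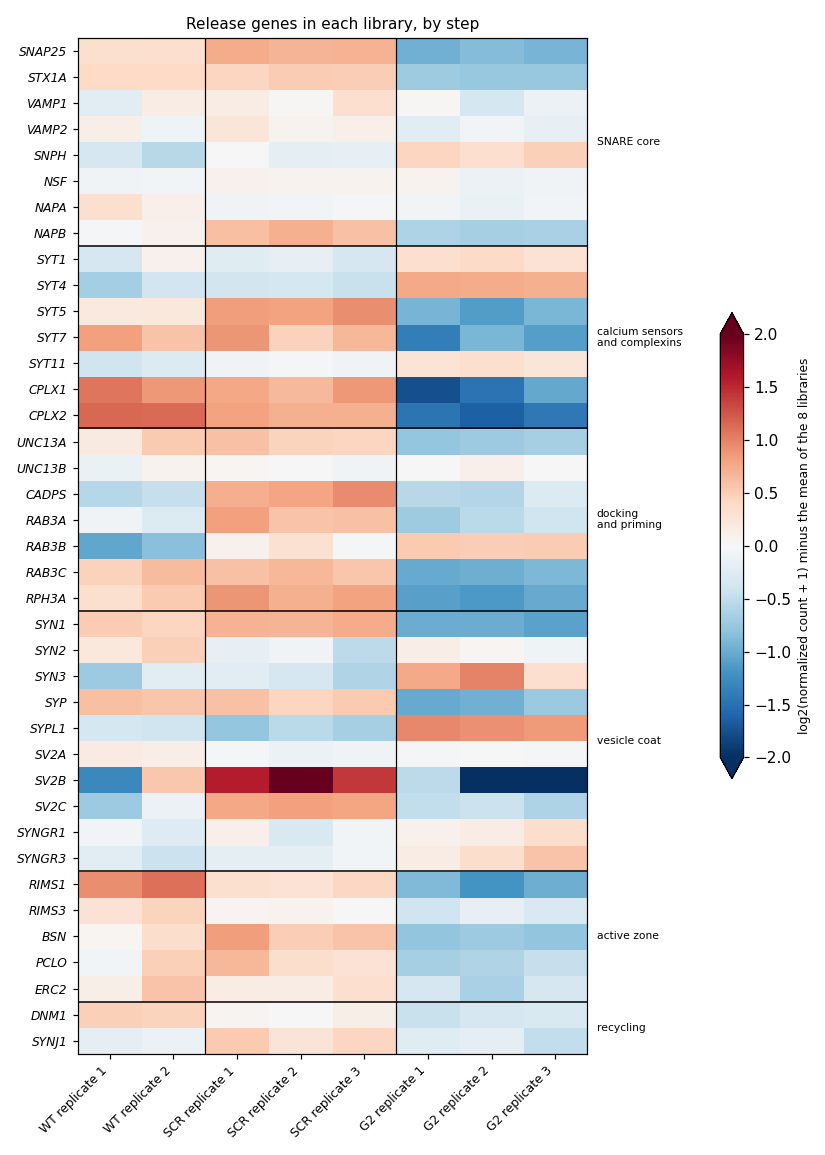
Each row is 1 of the 39 release genes tested and each column 1 library, grouped by line. Colour gives log2(normalized count + 1) minus the gene's mean over the 8 libraries, with the scale ending at -2 and 2. The G2 columns are blue for most genes of docking and priming and of the active zone, and red for SYT4, SYN3 and SYPL1.

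In G2 against SCR, 25 of the 39 genes passed the call, a fold change of at least 1.5 with an unadjusted p of at most 0.05 in limma's fit across all genes. Of these, 21 were lower and 4 higher. Among all 18947 genes tested, 26.9% were called in this comparison, 11.8% lower and 15.1% higher. With p adjusted over all genes (Benjamini-Hochberg) in its place, 21 members were again lower and 4 higher, beside 10.7% and 14.3% of all genes, 25.0% in all. Values with an SE or a 95% CI are fitted log2 fold changes, as are those in parentheses after a library left out or another scaling, and adjusted p runs over all genes tested. The members' median log2 fold change was -0.71, while that of all genes was -0.01.

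Against WT, 18 members were lower and 7 higher in G2, beside 12.2% lower and 17.7% higher among all genes, or 29.9% called in all. The adjusted p gave 18 and 7 again, beside 11.3% and 16.9%, 28.2% in all. The median was -0.38 for the members and 0.00 for all genes. No member was called in opposite directions in the G2 comparisons, which share the G2 libraries. The lower calls had 16 genes in common, namely SNAP25, STX1A, NAPB, SYT5, SYT7, CPLX1, CPLX2, UNC13A, RAB3C, RPH3A, SYN1, SYP, RIMS1, BSN, PCLO and ERC2. The higher calls shared 3, SYT4, SYN3 and SYPL1. The share of all genes called in both comparisons is not given here, so these overlaps only list the genes. RNA of a whole culture cannot tell fewer cells of a kind from less RNA per cell.

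SCR also differed from WT. Between them 9 members were called, 7 higher in SCR (NAPB, SYT5, CADPS, RAB3A, RAB3B, SV2B and SV2C) and 2 lower (SYN2 and RIMS1), a share of 23.1% beside 16.3% of all genes. With libraries scaled to the same total, which moved the median of all genes from 0.01 to 0.28 on the log2 scale, 12 members were higher and 0 lower, beside 20.9% and 2.17% of all genes under that scaling. At the adjusted p, 6 were higher and 2 lower, beside 8.95% and 4.83% of all genes, 13.8% in all. Called against both controls and not between them were 16 members, 13 lower and 3 higher, beside 5.63% and 8.13% of all genes, 13.8% in all. The 3 G2 libraries lay below all 5 controls in 19 members and above them in 8, beside 19.7% and 22.8% of all genes, 42.5% in all.

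**Figure D2:**
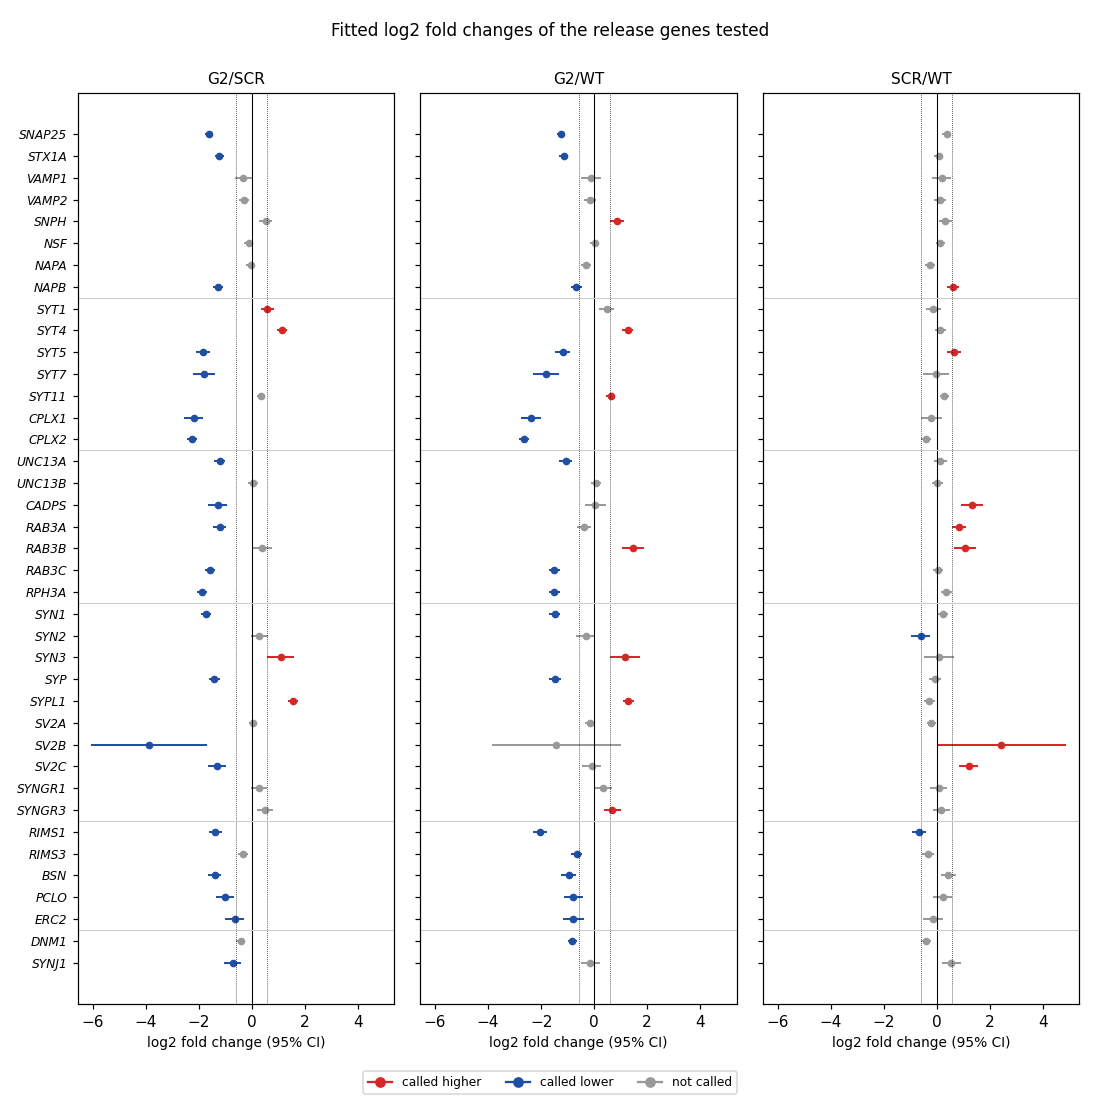
Fitted log2 fold changes (points) with 95% confidence intervals (bars) of the 39 genes tested, for G2/SCR, G2/WT and SCR/WT on a common axis. Dotted lines mark a 1.5-fold change. CPLX1 and CPLX2 lie at -2.18 and -2.25 in G2/SCR with narrow intervals, and SV2B has a wide one, from -6.01 to -1.72.

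The motifs of transcription factors known at promoters of neuronal genes were looked for in RefSeq promoter windows, 250 bases before to 50 after the start (GRCh38.p14), found for 35 members. The RefSeq start lay within 1 kb of the 5′ end of the gene's row in the table for 32 of these, and 217.9 kb (NSF), 216.7 kb (RPH3A) and 10.9 kb (SV2A) inside the row for 3. Both strands were read. CAGCACC and GGACAGC, the left and right parts of the RE1 element to which the repressor REST binds, were in 8 and 5 of the 35 windows (22.9% and 14.3%), against 7.64% and 6.11% of all 27305 windows. Among the 18 windows of genes called lower in G2/SCR they were in 7 and 5, among the 3 of genes called higher in 1 and 0, and among the 13 of genes not called in 0 and 0. The window of a higher gene with the left part was that of SYT4. Both parts stood together in the windows of UNC13A and RPH3A, and in 0.798% of all windows. TGACGT, the core of the cAMP response element, was in 5 windows of members (14.3%, against 8.32% of all), and GGGCGG, the GC box, in 27 (77.1%, against 44.6%). The members' windows were richer in G and C, with a median of 68.3% against 58.3%. These are matches of letters, with no test, and say nothing of binding. REST itself had 840, 840 and 947 normalized counts in G2, 522, 563 and 484 in SCR and 386 and 560 in WT, and was called higher in G2, with log2 fold changes of 0.74 (SE 0.13, adjusted p = 0.00042) in G2/SCR and 0.91 (SE 0.14, adjusted p = 0.00019) in G2/WT.

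The windows of 3 docking and priming genes with matches, all called lower in G2/SCR, are shown from 250 bases before to 30 after the start, 5′ to 3′ on the gene's strand. Capitals mark RE1 parts and the core of the cAMP response element on either strand (GGTGCTG and GCTGTCC are the RE1 parts read on the other strand). RPH3A (chr12:112791498-112791777, plus strand) holds both parts with 2 bases between them, at an internal start 216.7 kb inside the counted row. UNC13A (chr19:17688325-17688604, minus strand) holds them with 8 bases between, after a cAMP element core. RAB3A (chr19:18204013-18204292, minus strand) holds the core at 2 places and no RE1 part.
RPH3A: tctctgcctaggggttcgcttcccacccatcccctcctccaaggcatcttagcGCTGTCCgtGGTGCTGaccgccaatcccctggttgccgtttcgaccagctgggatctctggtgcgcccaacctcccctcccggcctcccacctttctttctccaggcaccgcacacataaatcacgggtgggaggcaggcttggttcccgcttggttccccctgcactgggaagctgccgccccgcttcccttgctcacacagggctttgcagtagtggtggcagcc
UNC13A: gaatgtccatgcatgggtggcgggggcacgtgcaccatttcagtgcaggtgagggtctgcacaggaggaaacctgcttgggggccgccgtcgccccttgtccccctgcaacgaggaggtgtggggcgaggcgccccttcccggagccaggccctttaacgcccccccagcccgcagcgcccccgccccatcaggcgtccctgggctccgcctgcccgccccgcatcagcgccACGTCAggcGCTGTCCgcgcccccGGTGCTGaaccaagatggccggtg
RAB3A: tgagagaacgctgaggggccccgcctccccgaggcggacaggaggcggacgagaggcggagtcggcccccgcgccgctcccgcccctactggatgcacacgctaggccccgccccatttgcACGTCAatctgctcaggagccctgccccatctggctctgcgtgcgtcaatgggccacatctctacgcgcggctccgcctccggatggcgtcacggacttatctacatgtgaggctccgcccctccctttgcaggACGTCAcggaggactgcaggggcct

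The SNARE core split by partner. SNAP25 (GSHG0026584, chr20:10218830-10307418), which pairs with syntaxin on the plasma membrane, had 5046, 5412 and 5159 normalized counts in G2, 16404, 15730 and 15910 in SCR and 12245 and 12435 in WT. STX1A (chr7:73699210-73719669), the plasma membrane syntaxin, had 1549, 1496 and 1503 in G2, 3420, 3593 and 3573 in SCR and 3351 and 3345 in WT. For both genes every G2 library lay far below every control. SNAP25 was 3.08-fold lower than in SCR (log2 fold change -1.62, SE 0.05, adjusted p = 1.6e-10) and 2.37-fold lower than in WT (-1.25, SE 0.06, adjusted p = 3.9e-09). STX1A was 2.33-fold lower than in SCR (-1.22, SE 0.06, adjusted p = 4.3e-09) and 2.21-fold lower than in WT (-1.14, SE 0.06, adjusted p = 2.3e-08).

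The vesicle SNAREs were not called in any comparison. VAMP2 had 3025, 3435 and 3162 normalized counts in G2, 4222, 3727 and 3811 in SCR and 3853 and 3366 in WT, and VAMP1, its sister form, had 402, 311 and 368 in G2, 438, 402 and 502 in SCR and 344 and 441 in WT. The G2 libraries overlapped the controls for both. The log2 fold change of VAMP2 in G2/SCR was -0.29 (95% CI -0.45 to -0.13), an interval that leaves out a 1.5-fold fall, while that of VAMP1 was -0.31 (95% CI -0.61 to -0.02) and reaches it. Against WT the intervals ran from -0.35 to 0.01 for VAMP2 and from -0.45 to 0.21 for VAMP1.

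NSF and the SNAPs, which pull spent SNARE bundles apart, also went separate ways. NSF, on a row shared with the pseudogene NSFP1, had 8259, 7221 and 7428 normalized counts in G2, 8304, 8262 and 8245 in SCR and 7444 and 7571 in WT. NAPA, encoding the alpha SNAP of all tissues, had 6123, 5776 and 6111 in G2, 6077, 6153 and 6174 in SCR and 7928 and 6799 in WT. Neither was called, with log2 fold changes in G2/SCR of -0.12 (95% CI -0.24 to 0.01) for NSF and -0.03 (95% CI -0.17 to 0.10) for NAPA. NAPB, the brain form of the same protein, had 597, 575 and 582 in G2, 1391, 1493 and 1374 in SCR and 893 and 969 in WT. NAPB thus differed among all 3 lines, with log2 fold changes of -1.28 (SE 0.07, adjusted p = 3.4e-08) in G2/SCR, -0.67 (SE 0.08, adjusted p = 2.8e-05) in G2/WT and 0.61 (SE 0.08, adjusted p = 0.00017) in SCR/WT. The SCR/WT call was lost without SCR replicate 2 (0.57) or WT replicate 1 (0.55), and the G2/WT call with libraries scaled to the same total (-0.48).

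SNPH encodes syntaphilin, which binds syntaxin and anchors mitochondria in axons. It had 1076, 1007 and 1113 normalized counts in G2, 797, 710 and 719 in SCR and 637 and 544 in WT, highest in all G2 libraries. It was called higher against WT (0.85, SE 0.10, adjusted p = 1.7e-05) and lay under the fold threshold against SCR (0.52, SE 0.09, adjusted p = 0.00037). Summed over the 8 genes of the step, the normalized counts were 25234 to 26077 in G2, 40071 to 41054 in SCR and 35470 to 36694 in WT.

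**Figure D3:**
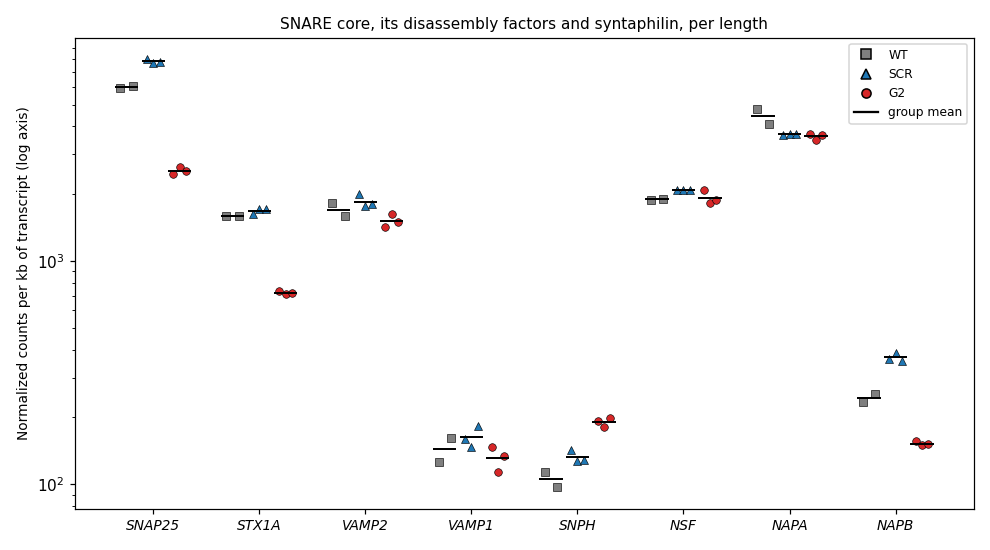
Normalized counts per kb of transcript (log axis) of the 8 genes of the SNARE core step in each library, with a bar at each line's mean. SNAP25, STX1A and NAPB sit lower in the 3 G2 libraries than in the 5 controls, while VAMP1, VAMP2, NSF and NAPA overlap.

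Levels of different genes were set side by side only after division by the length of the MANE Select transcript. On this scale of normalized counts per kb, SNAP25 was the highest of the 41 genes in SCR, at 7801, and in G2, at 2536, it came after SYT4 and NAPA. VAMP2 stood at 1509 in G2 and 1844 in SCR, so SNAP25 exceeded it by less in G2 than in SCR. NSF and NAPA, at 1917 and 3612 in G2, stood above most members in each line.

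Among the calcium sensors, direction differed by isoform. SYT4 (chr18:43267892-43277535), a synaptotagmin whose first C2 domain does not bind calcium and which sits largely on dense-core granules, had 62721, 62193 and 60322 normalized counts in G2, 28610, 29003 and 27230 in SCR and 23191 and 28526 in WT. Its G2 libraries were all above the controls, by a log2 fold change of 1.13 (SE 0.07, adjusted p = 6e-08) against SCR and 1.26 (SE 0.08, adjusted p = 6.4e-08) against WT. SYT1, the fast sensor of synaptic vesicles, had 2359, 2453 and 2294 in G2, 1577, 1670 and 1479 in SCR and 1479 and 1981 in WT. SYT1 was called higher against SCR at 0.59 (SE 0.10, adjusted p = 3e-04), just past the fold threshold, and not against WT (0.47, SE 0.11, adjusted p = 0.0031). Its call against SCR was lost without G2 replicate 2 (0.56), without SCR replicate 3 (0.54) and with libraries scaled to the same total (0.50), and a call against WT was gained without WT replicate 2 (0.68) and with that scaling (0.65).

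SYT11, another form with weak or no calcium binding, had 7564, 7898 and 7367 normalized counts in G2, 5987, 6112 and 5943 in SCR and 4756 and 5165 in WT. It was called higher against WT (0.62, SE 0.06, adjusted p = 4.2e-06) but not without WT replicate 1 (0.56), and was not called against SCR (0.34, SE 0.05, adjusted p = 0.00024). The other sensors among the members were lower. SYT5, a form found on dense-core granules, had 194, 170 and 196 in G2, 660, 648 and 703 in SCR and 426 and 428 in WT. SYT7, the slow high-affinity sensor, had 44.2, 61.3 and 53.7 in G2, 215, 160 and 186 in SCR and 206 and 173 in WT. The G2 libraries lay below all controls for both genes, with log2 fold changes in G2/SCR of -1.84 (SE 0.10, adjusted p = 1.7e-08) for SYT5 and -1.80 (SE 0.18, adjusted p = 5e-06) for SYT7. In G2/WT these were -1.19 (SE 0.11, adjusted p = 2.4e-06) and -1.82 (SE 0.20, adjusted p = 1.2e-05). SYT5 was also higher in SCR than in WT (0.65, SE 0.11, adjusted p = 0.00079).

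Both complexins, the clamps of the SNARE bundle, were lower in G2. CPLX1 had 695, 844 and 1157 normalized counts in G2, 4018, 3690 and 4285 in SCR and 4893 and 4277 in WT. CPLX2 had 1683, 1482 and 1720 in G2, 8077, 7553 and 7537 in SCR and 10221 and 10140 in WT. Every G2 library of either gene was far below every control. CPLX1 was 4.53-fold lower than in SCR (log2 fold change -2.18, SE 0.14, adjusted p = 1.3e-07) and CPLX2 4.75-fold lower (-2.25, SE 0.07, adjusted p = 1.2e-10). Against WT the values were -2.38 (SE 0.16, adjusted p = 1.7e-07) for CPLX1 and -2.65 (SE 0.07, adjusted p = 6.9e-11) for CPLX2. Per kb, the ratio of CPLX1 to CPLX2 overlapped between the lines, with means of 1.20 in G2, 1.13 in SCR and 0.98 in WT.

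Summed over the 7 genes of the step, the normalized counts were 73110 to 75261 in G2, 47362 to 49144 in SCR and 45172 to 50689 in WT, so that G2 was higher here, where SYT4 made up most of each sum. The sums over all 41 members were 132140 to 133683 in G2, within the 130116 to 138349 of WT and below the 140149 to 146152 of SCR. These sums are not scaled to length and rest heavily on SYT4, which averaged 61745 in G2, 28281 in SCR and 25859 in WT.

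Over the synaptotagmin family, SYT4 held 84.0% to 84.5% of the summed counts per kb in G2, against 77.0% to 77.8% in SCR and 78.5% to 80.0% in WT. SYT9, a calcium sensor that is no member but was the other sensor with the smallest p among those higher in G2/SCR, had 2776, 2781 and 2703 normalized counts in G2, 149, 171 and 135 in SCR and 159 and 140 in WT. Its log2 fold changes were 4.18 (SE 0.11, adjusted p = 4.3e-11) in G2/SCR and 4.20 (SE 0.12, adjusted p = 8.2e-11) in G2/WT. The ratio of SYT1 to SYT9 per kb, a pair added after the values were seen, was 0.722 to 0.750 in G2 and 7.91 to 12.0 in the controls. SYT3 had the smallest p among the lower ones, with 178, 198 and 222 in G2, 607, 516 and 611 in SCR and 325 and 345 in WT (-1.53, SE 0.12, adjusted p = 4.2e-07 in G2/SCR).

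**Figure D4:**
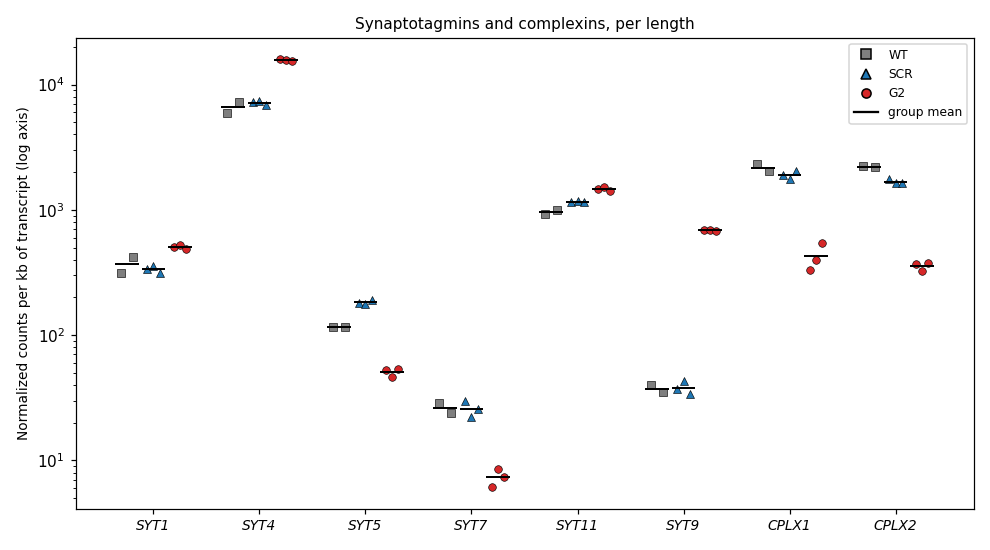
Normalized counts per kb of transcript (log axis) of synaptotagmins and complexins in each library, with a bar at each line's mean. In G2, SYT4 and SYT9 lie above the 5 controls, and SYT5, SYT7, CPLX1 and CPLX2 below them.

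Docking and priming genes among the members were lower or not called against SCR, 5 of 7 tested being lower, beside 11.8% of all genes. Against WT 3 were lower and 1 higher, beside 12.2% and 17.7%. UNC13A (chr19:17601336-17688603), the main Munc13 priming factor of neurons, had 2196, 2250 and 2357 normalized counts in G2, 5628, 5081 and 5058 in SCR and 4233 and 5364 in WT. UNC13B, its relative, had 3517, 3798 and 3559 in G2, 3634, 3514 and 3353 in SCR and 3205 and 3706 in WT. UNC13A separated G2 from the controls, with log2 fold changes of -1.21 (SE 0.08, adjusted p = 1.8e-07) against SCR and -1.07 (SE 0.09, adjusted p = 1.5e-06) against WT, while UNC13B overlapped, with 0.05 (95% CI -0.10 to 0.20) and 0.07 (95% CI -0.09 to 0.24). The ratio of UNC13A to UNC13B per kb was 0.866 to 0.968 in G2, and 1.93 to 2.26 in the controls.

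RPH3A (chr12:112575097-112898881) and RAB3C, an effector and a GTPase of the RAB3 tethering system, were likewise lower in G2 against both controls. RPH3A had 2109, 1999 and 2210 normalized counts in G2, 8176, 7287 and 7778 in SCR and 5585 and 6422 in WT, with -1.88 (SE 0.07, adjusted p = 7.9e-10) and -1.51 (SE 0.08, adjusted p = 1.6e-08) on the log2 scale against SCR and WT. RAB3C had 1056, 1086 and 1142 in G2, 3186, 3377 and 3118 in SCR and 2934 and 3296 in WT, with -1.56 (SE 0.07, adjusted p = 2.9e-09) and -1.51 (SE 0.08, adjusted p = 1.1e-08). For both genes all G2 libraries were under all controls.

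RAB3A and CADPS were called lower in G2 against SCR and not against WT. RAB3A, the main RAB3 of synaptic vesicles, had 2476, 2802 and 3069 normalized counts in G2, 7173, 6036 and 6068 in SCR and 3853 and 3358 in WT. CADPS, a priming factor of dense-core granules, had 91.3, 89.8 and 112 in G2, 224, 234 and 261 in SCR and 90.6 and 98.3 in WT. SCR stood above WT for both, by 0.83 (SE 0.10, adjusted p = 9.5e-05) for RAB3A and 1.33 (SE 0.17, adjusted p = 1e-04) for CADPS. In G2/SCR the log2 fold changes were -1.21 (SE 0.09, adjusted p = 4.6e-07) and -1.29 (SE 0.15, adjusted p = 1.8e-05). In G2/WT neither gene was called, with -0.38 (95% CI -0.60 to -0.15) for RAB3A and 0.04 (95% CI -0.32 to 0.41) for CADPS.

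RAB3B, a RAB3 of secretory cells, was not lower in G2. It had 167, 164 and 165 normalized counts in G2, 123, 145 and 114 in SCR and 55.9 and 64.5 in WT, higher in G2 than in WT (1.45, SE 0.17, adjusted p = 2.3e-05) and also in SCR than in WT (1.07, SE 0.17, adjusted p = 0.00062). It was not called between G2 and SCR (0.38, 95% CI 0.05 to 0.72). Summed over the step, the normalized counts were 11613 to 12627 in G2, 25673 to 28145 in SCR and 19963 to 22309 in WT.

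Among the genes of the vesicle coat, SYN1 is shown as a promoter with matches to the left RE1 part and to 2 overlapping cores of the cAMP response element (chrX:47619828-47620107, minus strand, 250 bases before to 30 after the start, with the same use of capitals). Only exact letters were matched. The stretch ggacagt just after the left part, which differs from the right part in its last letter, is therefore neither marked nor counted.
SYN1: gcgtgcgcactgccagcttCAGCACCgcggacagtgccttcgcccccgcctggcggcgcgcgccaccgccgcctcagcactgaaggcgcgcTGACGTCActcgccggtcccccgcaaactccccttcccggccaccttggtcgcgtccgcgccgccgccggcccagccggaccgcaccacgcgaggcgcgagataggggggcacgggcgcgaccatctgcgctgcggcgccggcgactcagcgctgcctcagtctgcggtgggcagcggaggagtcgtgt

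The synapsins, which tether vesicles into clusters, parted by isoform. SYN1 (chrX:47571901-47619857) had 501, 505 and 477 normalized counts in G2, 1616, 1599 and 1674 in SCR and 1420 and 1347 in WT. SYN2 had 504, 471 and 430 in G2, 408, 435 and 317 in SCR and 533 and 638 in WT, and SYN3 had 162, 191 and 120 in G2, 80.6, 75.1 and 62.0 in SCR and 57.1 and 81.4 in WT. SYN1 was below the controls in every G2 library, SYN3 above them, and SYN2 overlapped. The log2 fold change of SYN1 was -1.72 (SE 0.07, adjusted p = 1.5e-09) against SCR and -1.48 (SE 0.08, adjusted p = 1.5e-08) against WT. For SYN3 it was 1.09 (SE 0.22, adjusted p = 0.0013) and 1.17 (SE 0.24, adjusted p = 0.0016). SYN2 was called only as lower in SCR than in WT (-0.60, SE 0.14, adjusted p = 0.0066), a call lost without SCR replicate 3 (-0.47), without WT replicate 2 (-0.47) and with libraries scaled to the same total (-0.33).

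Other genes lie within or overlap these loci, and the strand setting of the counting is not given in the sources used here. TIMP1, inside SYN1, had a mean of 18227 normalized counts in G2, 104 in SCR and 1222 in WT, opposite to SYN1. SYN3 spans TIMP3 (1107, 739 and 1533). At its 3′ end it overlaps part of an unnamed gene, GSHG0029041, whose means of 186, 74.7 and 91.2 follow those of SYN3. SNAP25 overlaps SNAP25-AS1 at its 5′ end (37.5, 72.1 and 59.8 in G2, SCR and WT), STX1A overlaps BUD23 (6196, 5780 and 6978), RAB3A overlaps MPV17L2 (2847, 3694 and 3757) and DNM1 overlaps CIZ1 (7480, 7829 and 8969). The part of these neighbours in the members' values was not tested.

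Synaptophysin and its widespread relative crossed over. SYP, an abundant membrane protein of small vesicles, had 1132, 1171 and 1366 normalized counts in G2, 3427, 3072 and 3292 in SCR and 3473 and 3352 in WT. SYPL1, the form found in most tissues, had 3990, 3876 and 3735 in G2, 1199, 1424 and 1304 in SCR and 1607 and 1567 in WT. All G2 libraries were lower than the controls for SYP and higher for SYPL1. The log2 fold changes in G2/SCR were -1.42 (SE 0.08, adjusted p = 2.4e-08) for SYP and 1.57 (SE 0.07, adjusted p = 4.4e-09) for SYPL1, and in G2/WT -1.48 (SE 0.09, adjusted p = 4.8e-08) and 1.28 (SE 0.08, adjusted p = 7.5e-08). Per kb, the ratio of SYP to SYPL1 was 0.279 ± 0.0379 (SD, n = 3) in G2, 2.21 ± 0.308 (n = 3) in SCR and 1.89 ± 0.0137 (n = 2) in WT, so SYPL1 exceeded SYP in every G2 library and in no control.

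The SV2 proteins are glycoproteins of the vesicle membrane. SV2A, the form found in nearly all synapses, had 3805, 3905 and 3776 normalized counts in G2, 3846, 3590 and 3707 in SCR and 4345 and 4252 in WT, and was called in no comparison (0.04, 95% CI -0.07 to 0.16 in G2/SCR). SV2C, a form of restricted brain regions, had 411, 426 and 375 in G2, 987, 1020 and 995 in SCR and 350 and 532 in WT. SV2C was thus high in SCR alone, with -1.31 (SE 0.13, adjusted p = 5e-06) in G2/SCR, 1.21 (SE 0.15, adjusted p = 7.9e-05) in SCR/WT and -0.10 (95% CI -0.42 to 0.22) in G2/WT.

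SV2B was near the limit of detection. It had 2.82, 0 and 0 normalized counts in G2, 15.3, 48.8 and 13.6 in SCR and 1.24 and 6.95 in WT. No G2 or WT library exceeded 9 recovered counts, about 3 fragments, taken as the floor. It was called lower in G2/SCR, where the SCR mean was at least 2.78-fold above G2, computed against that floor. That bound holds for the mean, which SCR replicate 2 raised, and not for each SCR library. The call between SCR and WT was lost in limma's fit when any of SCR replicates 1 to 3 or WT replicate 1 was left out, with unadjusted p of 0.063 to 0.25.

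The synaptogyrins, smaller relatives of synaptophysin, were not lower. SYNGR1 had 629, 656 and 758 normalized counts in G2, 639, 481 and 571 in SCR and 570 and 499 in WT, and was not called. SYNGR3 had 530, 613 and 708 in G2, 419, 420 and 460 in SCR and 413 and 354 in WT, above all controls in G2. It was called against WT (0.68, SE 0.13, adjusted p = 9e-04), though not without G2 replicate 3 (0.57) or WT replicate 2 (0.57), and against SCR only without G2 replicate 1 (0.60). The sums over the 10 genes of the coat were close, at 11666 to 11813 in G2, 12164 to 12638 in SCR and 12631 to 12769 in WT.

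**Figure D5:**
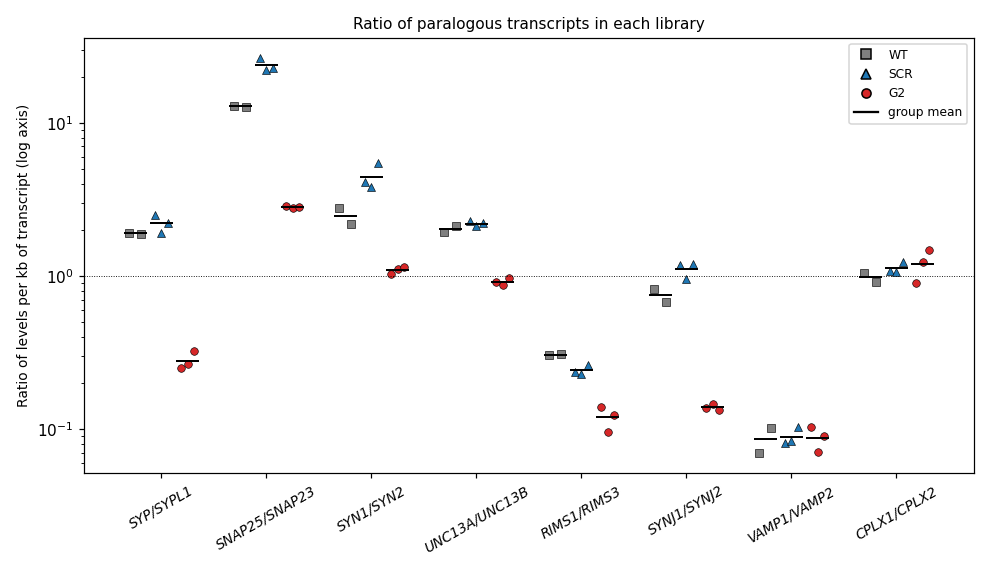
Ratio of normalized counts per kb of transcript between paralogous genes in each library (log axis), with a bar at each line's mean and a dotted line at equal levels. SYP/SYPL1, SNAP25/SNAP23, SYN1/SYN2, UNC13A/UNC13B, RIMS1/RIMS3 and SYNJ1/SYNJ2 lie lower in the 3 G2 libraries than in the 5 controls, and VAMP1/VAMP2 and CPLX1/CPLX2 overlap. The pairs shown are a selection, and SNAP25/SNAP23 and SYNJ1/SYNJ2 were added after the values were seen. Among pairs not shown, NAPA/NAPB, RAB3A/RAB3C and SYT1/SYT5, for instance, lay higher in G2. BSN/PCLO, SYNGR1/SYNGR3 and SV2A/SV2C overlapped.

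All 5 active zone genes were called lower against WT and 4 of 5 against SCR, beside 12.2% and 11.8% of all genes. BSN and PCLO encode Bassoon and Piccolo, the giant scaffold proteins. BSN had 981, 1024 and 980 normalized counts in G2, 3036, 2376 and 2513 in SCR and 1737 and 2168 in WT. PCLO had 943, 988 and 1091 in G2, 2366, 1900 and 1830 in SCR and 1434 and 2088 in WT. The G2 libraries of both lay below the controls, with log2 fold changes of -1.40 (SE 0.10, adjusted p = 2.7e-07) for BSN and -1.01 (SE 0.13, adjusted p = 5.5e-05) for PCLO in G2/SCR. In G2/WT the values were -0.96 (SE 0.11, adjusted p = 2e-05) for BSN and -0.78 (SE 0.15, adjusted p = 0.00083) for PCLO, the latter under the threshold without WT replicate 2 (-0.51).

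RIMS1, the RIM scaffold that links vesicles to calcium channels, differed among all lines. It had 375, 302 and 355 normalized counts in G2, 874, 854 and 930 in SCR and 1327 and 1493 in WT, that is -1.37 (SE 0.10, adjusted p = 2.3e-07) in G2/SCR, -2.04 (SE 0.11, adjusted p = 2e-08) in G2/WT and -0.67 (SE 0.11, adjusted p = 6e-04) in SCR/WT. The SCR/WT call was lost without WT replicate 2 (-0.58) and with libraries scaled to the same total (-0.39). RIMS3, a short RIM, had 2441, 2885 and 2606 in G2, 3369, 3387 and 3255 in SCR and 3952 and 4416 in WT. RIMS3 was called against WT alone (-0.66, SE 0.08, adjusted p = 2.4e-05), and not without WT replicate 2 (-0.58) or with that scaling (-0.48). The ratio of RIMS1 to RIMS3 per kb was 0.0952 to 0.140 in G2, 0.229 to 0.260 in SCR and 0.305 to 0.307 in WT.

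ERC2, the ELKS protein of the active zone, had 206, 165 and 204 normalized counts in G2, 286, 288 and 327 in SCR and 282 and 384 in WT. Its log2 fold change was -0.65 (SE 0.14, adjusted p = 0.0026) in G2/SCR and -0.78 (SE 0.16, adjusted p = 0.0014) in G2/WT. The G2/SCR call was lost without G2 replicate 2 (-0.55) and the G2/WT call without WT replicate 2 (-0.56). Over the 5 genes the normalized counts summed to 4946 to 5364 in G2, 8806 to 9930 in SCR and 8732 to 10550 in WT.

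Of the 2 recycling genes tested, 1 was called lower in each G2 comparison, a different gene each time. Among all genes, 11.8% were lower in G2/SCR and 12.2% in G2/WT. DNM1, the neuronal dynamin that cuts endocytic vesicles free, had 3481, 3781 and 3844 normalized counts in G2, 4934, 4737 and 5190 in SCR and 6598 and 6503 in WT. It was called against WT (-0.82, SE 0.07, adjusted p = 7.5e-07) and not against SCR (-0.42, 95% CI -0.55 to -0.29). SYNJ1, the lipid phosphatase that helps shed the clathrin coat, had 181, 187 and 152 in G2, 307, 254 and 288 in SCR and 186 and 197 in WT, lower against SCR (-0.71, SE 0.13, adjusted p = 0.00072) and overlapping WT (-0.15, 95% CI -0.47 to 0.17). Its relative SYNJ2 had 1371, 1342 and 1186 in G2, 275, 280 and 254 in SCR and 238 and 306 in WT. Over the 3 genes of the step, AMPH included, the normalized counts summed to 3668 to 3995 in G2, 4991 to 5478 in SCR and 6700 to 6784 in WT. The ratio of SYNJ1 to SYNJ2 per kb, a pair added after the values were seen, was 0.134 to 0.146 in G2 and 0.673 to 1.19 in the controls.

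The ratio of SNAP25 to SNAP23 per kb, a pair added after the values were seen, went from 23.8 ± 2.46 (SD, n = 3) in SCR and 12.8 ± 0.112 (n = 2) in WT to 2.80 ± 0.0400 (n = 3) in G2. SNAP23, the SNAP25 relative of most tissues, had 2001, 2209 and 2070 normalized counts in G2, 693, 801 and 787 in SCR and 1073 and 1103 in WT, with 1.46 (SE 0.08, adjusted p = 1.6e-08) in G2/SCR and 0.94 (SE 0.09, adjusted p = 2.4e-06) in G2/WT. VAMP3, the VAMP2 relative of most tissues, had 9208, 9518 and 9277 in G2, 6324, 6482 and 6079 in SCR and 7952 and 7132 in WT, above all controls but under the fold threshold (0.57, SE 0.06, adjusted p = 4.1e-06 in G2/SCR). STX4, a plasma membrane syntaxin of most tissues, was not called, with -0.13 (95% CI -0.28 to 0.01) in G2/SCR and 0.08 (95% CI -0.08 to 0.25) in G2/WT.

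SNAREs of general membrane traffic were read beside the members. Of 29 tested, 4 were called in G2/SCR, 2 higher and 2 lower (13.8%, beside 26.9% of all genes), and 6 in G2/WT, 5 higher and 1 lower (20.7%, beside 29.9%). Their median log2 fold changes were 0.05 and 0.14. SNAP23 had the smallest p of the higher ones in G2/SCR. VAMP5, a VAMP of muscle and other tissues, was the corresponding lower one and was listed at 0 in the 3 G2 libraries, with 110, 136 and 64.2 normalized counts in SCR and 183 and 107 in WT. The SCR mean was at least 11.1-fold above G2 for VAMP5, against the floor of 9 recovered counts per library.

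Other genes of release went both ways. Of 82 listed, 72 were tested. In G2/SCR 17 were lower and 14 higher, 43.1% in all, beside 11.8%, 15.1% and 26.9% of all genes. In G2/WT 15 were lower and 17 higher, 44.4% in all, beside 12.2%, 17.7% and 29.9%. Their median log2 fold changes were 0.03 and 0.13. Of the 12 tested in docking and priming, 0 were lower and 4 higher in G2/SCR, unlike the members of that step. In G2/WT 1 of these was lower and 6 were higher. RIMS4, a short RIM, had 884, 921 and 850 normalized counts in G2, 3563, 3637 and 3510 in SCR and 3254 and 3496 in WT, a log2 fold change of -2.01 (SE 0.06, adjusted p = 1.6e-10) in G2/SCR. SNAP91, the neuronal clathrin adaptor AP180, had 1188, 1338 and 1288 in G2, 4205, 3917 and 3838 in SCR and 3495 and 3589 in WT, at -1.65 (SE 0.07, adjusted p = 1.4e-09). Both lay below the controls in all G2 libraries, as did STXBP5L, a tomosyn (-1.60, SE 0.14, adjusted p = 1.5e-06), and SLC18A1, the vesicular monoamine transporter of chromaffin cells (-1.02, SE 0.06, adjusted p = 3.6e-08).

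Among those called higher, the gene with the smallest p in G2/SCR was named for each step. RAB27A, a GTPase of secretory granules and melanosomes, had 1018, 1076 and 1098 normalized counts in G2, 445, 449 and 432 in SCR and 653 and 498 in WT (1.27, SE 0.10, adjusted p = 6.3e-07 in G2/SCR). For recycling it was SYNJ2, at 2.26 (SE 0.11, adjusted p = 7.7e-09). PPFIA2, encoding a liprin alpha scaffold, was higher by 1.70 (SE 0.40, adjusted p = 0.004). SYNGR4, a synaptogyrin, had 39.5, 37.2 and 43.0 normalized counts in G2, 6.12, 5.63 and 4.53 in SCR, where no library exceeded the floor of 9 recovered counts, and 24.8 and 25.8 in WT. It was called higher in G2, with a mean at least 4.9-fold above SCR, computed against that floor.

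Markers of adrenergic neuroblastoma and of mesenchymal cells also differed between the lines. Over 12 adrenergic neuroblastoma markers, normalized counts summed to 103666 to 113756 in G2, 206606 to 221480 in SCR and 227349 to 243100 in WT, with 10 of 12 lower and 0 higher in G2/SCR, beside 11.8% and 15.1% of all genes. Over 12 mesenchymal and fibroblast markers the sums were 342001 to 346063, 109658 to 115245 and 78347 to 89725, with 10 of the 11 tested higher and 0 lower in G2/SCR, beside the same 15.1% and 11.8%. Of that list FN1 was at 0 in all G2 and WT libraries, with a mean of 0.756 in SCR. PRRX1 was at 0 in all SCR and WT libraries. The collagen gene COL3A1 averaged 40955 normalized counts in G2, 3348 in SCR and 253 in WT. Others of the list differed less. Per kb, COL1A2 averaged 151, 89.2 and 63.5 and PDGFRB 511, 413 and 511 in G2, SCR and WT. TH, the rate-limiting enzyme of catecholamine synthesis and an adrenergic marker, averaged 1.88 in G2, 14.0 in SCR and 16.9 in WT. GATA3, another adrenergic marker, went the other way. Per kb it averaged 5905 in G2, 4583 in SCR and 4853 in WT. The 6 Schwann cell markers summed to 170 to 267 in G2, 387 to 594 in SCR and 428 to 463 in WT, and SOX10, which defines that lineage, was at 0 in all 8 libraries. The part of these differences in the values of the release genes was not tested.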

How the data were processed

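RNA-seq of polyadenylated RNA covered 3 G2, 3 SCR and 2 WT libraries of SH-SY5Y, grouped by their labels. The authors prepared stranded paired-end libraries, aligned them with STAR (build hg38), took counts per FAST DB gene with featureCounts and normalized with DESeq2. The deposited signal is 1 normalized count per gene and library, not scaled to gene length. The strand setting and the treatment of reads with several matches are not given in the sources used here. No column belonged to other samples (0).

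The members and lists were chosen with earlier results of these data known, and support nothing independently. limma 3.58.1 in R 4.3.3 (lmFit, eBayes with a trend) was fitted on log2(normalized count + 1) for the 18947 genes averaging 10 or more over 8 libraries, with a mean per line and 1 shared estimate of spread. Fold changes are therefore on the log2(value + 1) scale and understate the changes of low genes. Calls needed a fold of 1.5 and an unadjusted p of at most 0.05. P-values adjusted by Benjamini-Hochberg run over all genes tested. The named genes are the 41 members, PRPF40B, REST, the called gene with the smallest p in G2/SCR per direction for each step of the other release genes and for the general SNAREs, SNAP23, VAMP3, STX4, and markers at 0. Genes that overlap a member's span, such as TIMP1, were named after their values were seen. So were the markers COL3A1, COL1A2, PDGFRB, TH and GATA3, which this rule does not cover.

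Within a library all values were whole multiples of 1 step, and 100% of values came out whole within 0.01 in 7 libraries, while that of WT replicate 2 (0.993) was too close to 1 for a check. Recovered counts were mostly multiples of 3 when small (71.3% to 75.6%), so 9 recovered counts, about 3 fragments, were taken as the floor of a library, covering counting error only. On recovered counts of G2/SCR, DESeq2 1.42.0 called 4974 genes and edgeR 4.0.16 called 5093. Lengths were those of MANE Select transcripts in GENCODE 44, matched for 41 members. Promoter windows were RefSeq's (GRCh38.p14), matched by symbol. The fit was tested on simulated data. Alternatives were the pseudocount, filter, thresholds, scaling, variance model, samples in the fit, a replicate block, and leaving out each library.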

Additional observations from a re-analysis of the deposited data

How the results depend on the processing

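Over 2298 comparisons of a member's fold change with an alternative, 2242 kept direction and side of the threshold, 44 lost the call, 12 gained it and 0 reversed. At the main settings 26.9%, 29.9% and 16.3% of all genes were called in G2/SCR, G2/WT and SCR/WT. The counts of called members below stand without the share of all genes under the same setting. They describe the members' calls only. With a fold change of at least 2, the called members fell to 16 in G2/WT and 4 in SCR/WT, and PRPF40B in G2/SCR (-0.95) lay under the threshold. Leaving out each library in turn gave 23 to 26 called members in G2/SCR, 22 to 25 in G2/WT, 7 to 9 in SCR/WT and 15 to 17 against both controls only, while PRPF40B ran from -0.99 to -0.93 and from -1.19 to -0.95. Scaling to the same total gave 24, 24 and 12 members, and DESeq2 and edgeR on recovered counts gave 25 and 25 in G2/SCR.

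Libraries with the same replicate number did not deviate together (correlations from -0.03 to 0.04), so the numbers pair nothing. A fit with the replicate block gave 25, 25 and 8 called members and 16 against both controls only, with PRPF40B at -1.09 in G2/WT. Depth limits SV2B, AMPH and CADPS2, which lie at or near the floor.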
